A study of Mus musculus with 12 samples.

Results

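RNA levels of 10 secreted factors that Sertoli cells are known to supply to the testis were followed in TM4 cells, a mouse Sertoli cell line, and in C18-4 cells, which stand for mouse spermatogonial stem cells. The 10 genes were chosen by symbol, as Gdnf, Kitl, Lif, Inha, Inhba, Inhbb, Dhh, Amh, Trf and Clu, and all 10 were found among the 17995 genes of the data. They were chosen with earlier results of these data known. In TM4 cells, 6 of them (Gdnf, Kitl, Lif, Inhba, Inhbb and Dhh) were higher than in C18-4 cells. Clu and Trf were lower in TM4 cells, and Inha and Amh overlapped between the lines. Of all 11773 genes tested, 52.8% also had no overlap between the lines. Among the members averaging over 1 RPKM in TM4 cells, Gdnf and Kitl varied most relative to their means. Like Inhbb, they were highest in 2 of the 3 TM4 shNC libraries, which were the lowest TM4 libraries for Lif, Inha and Inhba.

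Sertoli cells nurse the germ cells of the seminiferous tubule, and much of this support is secreted. GDNF signals through the receptor pair GFRA1 and RET on spermatogonia and sustains the renewal of the stem cell pool, while KIT ligand, the product of Kitl, acts on the receptor KIT of differentiating spermatogonia. Inhibins and activins share subunits. The α subunit from Inha paired with a β subunit gives an inhibin, which restrains the release of follicle-stimulating hormone, whereas paired β subunits from Inhba or Inhbb give activins. Desert hedgehog from Dhh signals to Leydig and peritubular cells, anti-Müllerian hormone is made by immature Sertoli cells, and transferrin and clusterin are abundant products of mature ones.

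RNA-seq was performed on 12 libraries in 4 groups of 3, C18-4 shNC, C18-4 shM5, TM4 shNC and TM4 shM5. The labels give the strain IRC for all of them. shM5 is a mixture of 3 short hairpin RNAs against the muscarinic acetylcholine receptor M5, the product of Chrm5, and shNC is the control hairpin. Each cell type was represented by 1 established line, TM4 kept in DMEM and C18-4 in DMEM/F12, both with serum, so the cell type, the line and the medium cannot be told apart. The labels do not say that the libraries of a group came from separate cultures, so the p-values measure the spread between these libraries, which may be technical. In a bulk sample of this kind, fewer expressing cells and less RNA per cell cannot be told apart.

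Values are RPKM, read numbers normalized for gene length and library size, which can be compared between genes. No read totals are given. From the steps between low values, 1 read was worth nearly the same in every library, with relative values from 0.966 to 1.03 over 22 to 24 genes. Chrm5 was listed at 0.01 RPKM in 1 library of each shNC group and at 0 in the other 10 libraries, so it does not check which libraries received shM5. TM4 shNC replicates 1 and 2 stood apart from the other 4 TM4 libraries, at root mean square distances of 0.640 to 0.677 (log2 RPKM), compared to 0.201 to 0.271 among those 4. In C18-4 cells replicate 3 of both groups lay at 0.376 to 0.491 from the other 4 libraries. The labelled cell types were borne out only in part. Of the defining Sertoli markers, Sox9 had a mean of 1.30 RPKM in TM4 cells and was at or near 0 in C18-4 cells, but Wt1 had 63.7 RPKM in C18-4 cells and 0.098 RPKM in TM4 cells, and Cldn11 and Nr5a1 were near 0 in both. Of 25 germ cell markers 22 were in the data, with a summed level of 93.7 to 153 RPKM in C18-4 and 32.4 to 34.5 RPKM in TM4 libraries, and 5 averaged 0.5 RPKM or more in C18-4 cells and 3 in TM4 cells. Uchl1 (115.9 RPKM in C18-4 cells, listed at 0 in TM4 cells), Id4 (3.08 and 0.083 RPKM) and Piwil2 (3.30 and 0.038 RPKM) were higher in C18-4 cells. Uchl1, at 76.8 to 140 RPKM, made up most of the C18-4 sum, so the higher sum there rests on this gene. Foxo1 (5.05 RPKM in C18-4 and 19.1 RPKM in TM4 cells), Bcl6b (0.022 and 7.35 RPKM) and Etv5 (1.91 and 6.75 RPKM) were higher in TM4 cells, whereas Ddx4, Dazl, Zbtb16, Kit and Stra8 were at or near 0 in both lines. The summed level of 5 epithelial markers was 263 to 472 RPKM in C18-4 and at most 0.23 RPKM in TM4 libraries, and that of 9 fibroblast markers was 485 to 652 RPKM in C18-4 and 1811 to 2357 RPKM in TM4 libraries. Within C18-4 cells these sums moved with shM5, from 263 to 322 RPKM in shNC to 419 to 472 RPKM in shM5 for the epithelial list and from 485 to 556 RPKM to 578 to 652 RPKM for the fibroblast list. The sum of 7 smooth muscle markers went from 62.1 to 78.0 RPKM in shNC to 114 to 158 RPKM in shM5. That of the germ cell markers, which is mostly Uchl1, went from 93.7 to 132 RPKM to 136 to 153 RPKM. In TM4 cells the smooth muscle sum was 128 to 261 RPKM in shNC and 243 to 365 RPKM in shM5, so those groups overlapped. The part of such cells in the results below was not tested.

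Differences between the lines were tested with limma on log2(RPKM + 0.1), a scale that understates the change of low genes. A gene was called with an adjusted p of at most 0.001 and a log2 difference of at least 1. Of the 10 members, 8 had the mean of 0.5 RPKM needed for the fit. In TM4 cells 6 of these were called higher, while 9.54% of all 11773 genes tested were, and 1 was called lower, compared to 16.8% of all genes. Dhh reached the mean only through TM4 cells (0.1 RPKM in C18-4, 1.15 RPKM in TM4 cells). Clu reached it only through C18-4 cells (7.43 and 0.0433 RPKM). The counts therefore depend on the filter. With a mean of at least 1 RPKM, 5 of 7 members were called higher and 1 lower, and 998 and 1726 of 11157 genes. Without a filter, 6 of 10 were called higher and 2 lower, and 1379 and 2576 of 17223 genes. At an adjusted p below 0.05 all 8 tested members differed, and so did 73.0% of all genes, but Inha did not in the shNC libraries alone (adjusted p = 0.422). The libraries of the lines did not overlap for 7 of the 8 tested members and for 52.8% of all genes tested. The median log2 difference was 2.59 over the 8 members and -0.14 over all genes. Scaling moved the second value, to -0.01 with median-of-ratios scaling and 0.02 with quantile normalization. It also moved the share of called genes that were higher in TM4 cells, from 36.2% to 42.0% and 49.6%.

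**Figure D1:**
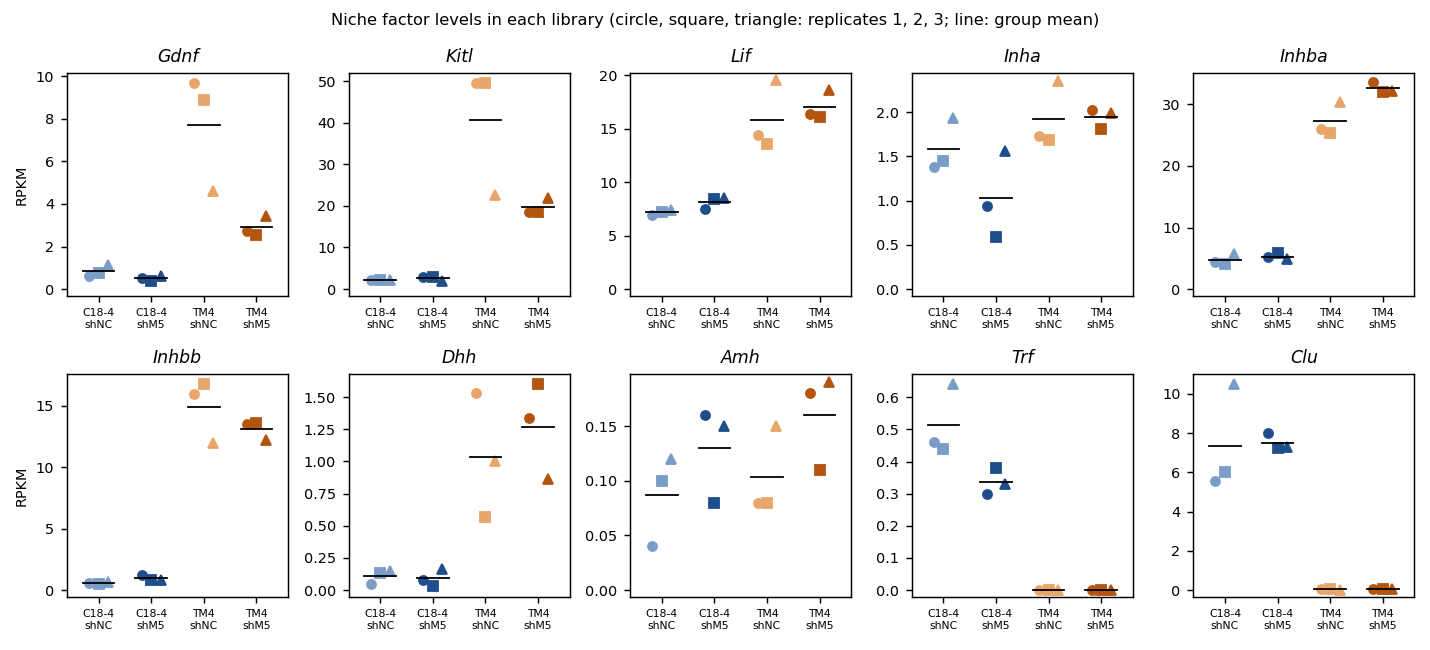
Levels of the 10 members in RPKM (vertical axes, linear) in the 3 libraries of each of the 4 groups (horizontal axes), with the group mean as a line. The TM4 libraries lie above all C18-4 libraries for Gdnf, Kitl, Lif, Inhba, Inhbb and Dhh and below them for Trf and Clu. TM4 shNC replicates 1 and 2 are the highest for Gdnf, Kitl and Inhbb and the lowest TM4 libraries for Lif, Inha, Inhba and Amh.

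**Figure D2:**
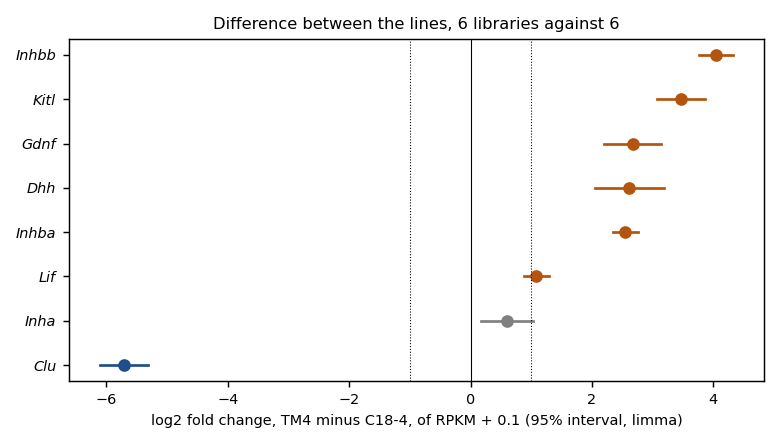
Log2 differences of the 8 tested members between TM4 and C18-4 cells, with 95% intervals from limma and dotted lines at -1 and 1. Inhbb, Kitl, Gdnf, Dhh, Inhba and Lif were called higher in TM4 cells, Clu was called lower, and Inha (grey) was not called.

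Gdnf, the stem cell renewal factor (chr15:7810846-7837575, plus strand, GRCm38, GENCODE M21), was low in C18-4 cells. C18-4 shNC replicates 1, 2 and 3 had 0.62, 0.74 and 1.14 RPKM, and C18-4 shM5 replicates 1, 2 and 3 had 0.54, 0.36 and 0.63 RPKM. TM4 shNC replicates 1, 2 and 3 had 9.67, 8.90 and 4.59 RPKM. TM4 shM5 replicates 1, 2 and 3 had 2.75, 2.52 and 3.42 RPKM. Every TM4 library was above every C18-4 library, and the lines differed by 2.67 on the log2 scale (SE 0.21, limma adjusted p = 3.19e-07). TM4 shNC was the highest group, followed by TM4 shM5, with no overlap between them, whereas the C18-4 groups overlapped. Without TM4 shNC replicates 1 and 2, the difference between the lines was 2.34 (adjusted p = 4.94e-06).

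Kitl, which encodes KIT ligand (chr10:100015630-100100416, plus strand), showed the same order of lines with larger values. C18-4 shNC replicates 1, 2 and 3 had 2.15, 2.24 and 2.21 RPKM, and C18-4 shM5 replicates 1, 2 and 3 had 2.80, 2.93 and 2.06 RPKM. TM4 shNC replicates 1, 2 and 3 had 49.5, 49.4 and 22.7 RPKM. TM4 shM5 replicates 1, 2 and 3 had 18.4, 18.5 and 22.0 RPKM. The lowest TM4 library was far above the highest C18-4 library, and the C18-4 groups overlapped. TM4 shNC replicate 3 was nearer the shM5 values than those of its own group. The ratio of the means was 12.5, and the log2 difference was 3.47 (SE 0.18, limma adjusted p = 6.63e-09). It was 3.10 (adjusted p = 8.64e-09) without TM4 shNC replicates 1 and 2.

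The promoters of Kitl and Gdnf are printed because both members were highest in the same TM4 libraries. Inhbb was highest there too, and its promoter is given below. They are RefSeq sequences (GRCm38.p6), 250 bases before to 50 bases after the start of transcription, and a table of such promoters held 7 of the 10 members. Capitals mark the matches to short motifs, each searched on both strands. The general promoter elements searched were the TATA box, with the letters TATAAA, the Sp1 box, with the letters GGGCGG, and the CCAAT box. A site of the GATA factors was searched as AGATAA, and the core of a cAMP response element was searched as TGACG. The whole response element (TGACGTCA), the AP-1 site, the SF-1 site and the E-box were searched too, without a match in the Kitl and Gdnf windows. Gdnf had 2 start sites in the table. Motif positions are counted from the RefSeq starts, which can differ from the GENCODE gene positions given above. The window of Gdnf start site 1 lies wholly before the GENCODE gene.
Kitl, chr10:100015571-100015870, plus strand: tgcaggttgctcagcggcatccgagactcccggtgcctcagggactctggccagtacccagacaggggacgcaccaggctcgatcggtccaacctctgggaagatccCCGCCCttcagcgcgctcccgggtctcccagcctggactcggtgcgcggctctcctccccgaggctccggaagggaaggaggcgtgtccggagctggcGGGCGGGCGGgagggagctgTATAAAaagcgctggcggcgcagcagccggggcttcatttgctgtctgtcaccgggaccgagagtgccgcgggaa
Gdnf start site 1, chr15:7809798-7810097, plus strand: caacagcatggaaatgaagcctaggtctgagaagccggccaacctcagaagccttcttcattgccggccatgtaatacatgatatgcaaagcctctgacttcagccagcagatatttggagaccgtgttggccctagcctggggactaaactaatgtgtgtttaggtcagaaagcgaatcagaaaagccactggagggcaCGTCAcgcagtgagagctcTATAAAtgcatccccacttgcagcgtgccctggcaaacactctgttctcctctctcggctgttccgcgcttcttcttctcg
Gdnf start site 2, chr15:7813477-7813776, plus strand: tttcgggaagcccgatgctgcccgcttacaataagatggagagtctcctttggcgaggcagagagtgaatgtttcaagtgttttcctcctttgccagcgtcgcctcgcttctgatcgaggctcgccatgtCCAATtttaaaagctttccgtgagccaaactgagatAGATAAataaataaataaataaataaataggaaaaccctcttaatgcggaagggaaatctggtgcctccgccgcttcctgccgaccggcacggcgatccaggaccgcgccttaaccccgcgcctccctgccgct
The Kitl promoter held a TATA box beginning 25 bases before the start and 3 Sp1 boxes, of which the pair at -45 and -41 overlapped by 2 bases. Gdnf start site 1 held a TATA box at -31 and the core of a cAMP response element at -50, and start site 2 held a CCAAT box at -120 and a GATA site at -84. Over the 32817 promoters of the table, 13.62% held the TATA box, 35.63% the Sp1 box, 37.39% the CCAAT box, 11.18% the GATA site and 20.79% the core of the response element. Such matches describe the letters of these windows and are no evidence of binding.

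Lif encodes leukemia inhibitory factor, an interleukin-6 family cytokine (chr11:4257557-4272514, plus strand). In C18-4 cells it had 6.93, 7.21 and 7.38 RPKM in shNC replicates 1, 2 and 3, and 7.47, 8.42 and 8.53 RPKM in shM5 replicates 1, 2 and 3. In TM4 cells it had 14.4, 13.6 and 19.6 RPKM in shNC replicates 1, 2 and 3, and 16.4, 16.1 and 18.6 RPKM in shM5 replicates 1, 2 and 3. The lines did not overlap, and the TM4 groups overlapped each other. The log2 difference of 1.08 (SE 0.093, limma adjusted p = 6.69e-07) was the smallest of those called, and it stayed between 1.003 and 1.245 over 25 alternatives.

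Inha encodes the inhibin α subunit (chr1:75507077-75510366, plus strand). It had 1.38, 1.45 and 1.93 RPKM in C18-4 shNC and 0.94, 0.59 and 1.56 RPKM in C18-4 shM5 replicates 1, 2 and 3. It had 1.73, 1.68 and 2.35 RPKM in TM4 shNC and 2.02, 1.81 and 1.99 RPKM in TM4 shM5 replicates 1, 2 and 3. The highest C18-4 library lay within the range of the TM4 libraries. The log2 difference of 0.60 (SE 0.19, limma adjusted p = 0.0149) did not reach the fold needed for a call. It was 0.26 (adjusted p = 0.422) in the shNC libraries alone and 0.94 (adjusted p = 0.0106) in the shM5 libraries alone. With quantile normalization Inha was called, at 1.43 (adjusted p = 7.99e-05).

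Inhba, which encodes the β subunit of activin A (chr13:16011851-16031621, plus strand), had 4.40, 4.12 and 5.76 RPKM in C18-4 shNC and 5.17, 5.86 and 4.85 RPKM in C18-4 shM5 replicates 1, 2 and 3. It had 26.0, 25.3 and 30.4 RPKM in TM4 shNC and 33.6, 32.0 and 32.2 RPKM in TM4 shM5 replicates 1, 2 and 3. TM4 libraries were above all C18-4 libraries, and within TM4 cells the shM5 libraries were above all shNC libraries. The lines differed by 2.55 on the log2 scale (SE 0.092, limma adjusted p = 1.97e-10).

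Inhbb, which encodes the β subunit of activin B (chr1:119415465-119422248, minus strand), was more unequal. It had 0.59, 0.52 and 0.69 RPKM in C18-4 shNC and 1.23, 0.82 and 0.81 RPKM in C18-4 shM5 replicates 1, 2 and 3. It had 15.95, 16.76 and 11.97 RPKM in TM4 shNC and 13.5, 13.6 and 12.2 RPKM in TM4 shM5 replicates 1, 2 and 3. The C18-4 shM5 libraries were above all C18-4 shNC libraries, and the TM4 groups overlapped. TM4 shNC replicates 1 and 2 were the highest, as for Gdnf and Kitl. The ratio of the line means was 18.04, and the log2 difference was 4.04 (SE 0.13, limma adjusted p = 5.64e-11), the largest positive difference among the members.

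The promoters of the activin subunits are shown because both genes were called higher in the same line. Capitals again mark the TATA box and the Sp1 box.
Inhba, chr13:16011601-16011900, plus strand: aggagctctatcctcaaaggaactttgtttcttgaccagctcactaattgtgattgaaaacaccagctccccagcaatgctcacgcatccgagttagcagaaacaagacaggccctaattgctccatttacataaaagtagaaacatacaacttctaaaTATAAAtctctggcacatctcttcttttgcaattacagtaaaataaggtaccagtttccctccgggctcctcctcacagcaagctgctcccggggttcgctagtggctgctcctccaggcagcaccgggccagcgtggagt
Inhbb, chr1:119422199-119422498, minus strand: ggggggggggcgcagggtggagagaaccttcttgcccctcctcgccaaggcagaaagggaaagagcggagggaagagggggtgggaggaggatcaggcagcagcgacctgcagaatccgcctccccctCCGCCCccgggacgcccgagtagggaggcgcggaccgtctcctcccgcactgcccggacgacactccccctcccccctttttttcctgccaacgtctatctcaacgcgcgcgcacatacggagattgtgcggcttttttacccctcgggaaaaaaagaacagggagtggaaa
The windows shared none of these motifs. Inhba held a TATA box at -91, with 47.7% G and C and 7 CpG dinucleotides, and Inhbb held an Sp1 box at -122, with 64.3% G and C and 23 CpG dinucleotides. The median G and C content of all promoters in the table was 52.7%.

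Because RPKM accounts for gene length, the subunits can be set against each other within a library. Inhba exceeded Inhbb in every library, by 4.20 to 8.35 times in C18-4 cells and by 1.51 to 2.63 times in TM4 cells. The lines did not overlap in this ratio. Inhba exceeded Inha by 2.84 to 9.93 times in C18-4 cells and by 13.0 to 17.7 times in TM4 cells, again without overlap. The ratio of Kitl to Gdnf lay between 4.95 and 7.32 in all TM4 libraries, while Kitl itself ranged from 18.4 to 49.5 RPKM and Gdnf from 2.52 to 9.67 RPKM in them. In C18-4 cells the same ratio went from 1.94 to 8.14. These ratios are descriptions and were not tested.

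**Figure D3:**
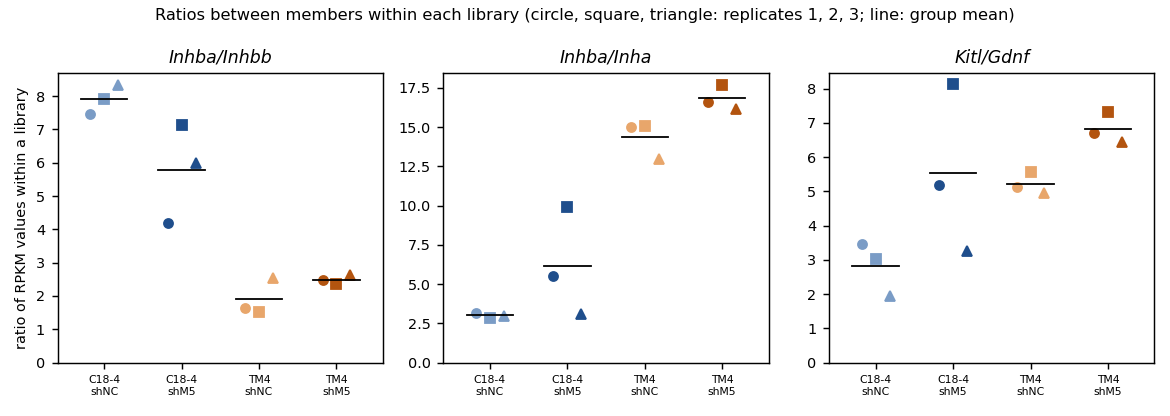
Ratios of RPKM values within each library (vertical axes, linear from 0) for Inhba to Inhbb, Inhba to Inha and Kitl to Gdnf in the 4 groups, with group means as lines. The first ratio is lower and the second higher in every TM4 library than in any C18-4 library, and the third lies between 4.95 and 7.32 in TM4 cells.

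Dhh, which encodes desert hedgehog (chr15:98891152-98898540, minus strand), was barely detected in C18-4 cells. Its values there were 0.05, 0.13 and 0.15 RPKM in shNC and 0.08, 0.03 and 0.16 RPKM in shM5 replicates 1, 2 and 3. In TM4 cells they were 1.53, 0.57 and 1.0 RPKM in shNC and 1.34, 1.60 and 0.86 RPKM in shM5 replicates 1, 2 and 3. The lowest TM4 library was above the highest C18-4 library, and the TM4 groups overlapped. The log2 difference was 2.62 (SE 0.26, limma adjusted p = 2.53e-06) and, with a pseudocount of 1 RPKM, 0.95, under the fold needed for a call.

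Amh, which encodes anti-Müllerian hormone (chr10:80805243-80807648, plus strand), was near 0 in both lines, from 0.04 to 0.16 RPKM with a median of 0.11 in C18-4 cells and from 0.08 to 0.19 RPKM with a median of 0.13 in TM4 cells. The lines overlapped, and a two-sided exact permutation test of their means gave p = 0.446.

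Trf, which encodes transferrin, the iron carrier (chr9:103204001-103230444, minus strand), had 0.46, 0.44 and 0.64 RPKM in C18-4 shNC and 0.30, 0.38 and 0.33 RPKM in C18-4 shM5 replicates 1, 2 and 3. It was listed at 0 in all 6 TM4 libraries. The lines did not overlap, and the same exact permutation test gave p = 0.00217, the smallest it can give with 6 libraries against 6. Within C18-4 cells each shM5 library was below each shNC library. Neither Amh nor Trf reached the mean needed for the limma fit.

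Clu encodes clusterin, an extracellular chaperone also known as sulfated glycoprotein 2 (chr14:65968483-65981547, plus strand). It had 5.55, 6.02 and 10.5 RPKM in C18-4 shNC and 8.01, 7.23 and 7.30 RPKM in C18-4 shM5 replicates 1, 2 and 3. In TM4 cells it had 0.04, 0.07 and 0 RPKM in shNC and 0.04, 0.07 and 0.04 RPKM in shM5 replicates 1, 2 and 3. The TM4 values correspond to 0 to 2 reads in a library at a step of 0.0342 to 0.0382 RPKM for 1 read. The log2 difference was -5.71 (SE 0.18, limma adjusted p = 5.32e-11), and because the TM4 values are so low its size depends on the pseudocount, from -2.99 with 1 RPKM to -7.35 with 0.01 RPKM.

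In TM4 cells the mean levels fell in the order Kitl (30.1 RPKM), Inhba (29.9 RPKM), Lif (16.4 RPKM), Inhbb (14.0 RPKM), Gdnf (5.31 RPKM), Inha (1.93 RPKM), Dhh (1.15 RPKM), Amh (0.132 RPKM) and Clu (0.0433 RPKM), with Trf listed at 0. Over the TM4 libraries Kitl and Inhba overlapped, as did Lif and Inhbb. Within libraries, Kitl was above Inhba in shNC replicates 1 and 2 and below it in the others. Inhbb was likewise above Lif in those libraries and below it in the others. In C18-4 cells the order was Lif (7.66 RPKM), Clu (7.43 RPKM), Inhba (5.03 RPKM), Kitl (2.40 RPKM), Inha (1.31 RPKM), Inhbb (0.777 RPKM), Gdnf (0.672 RPKM), Trf (0.425 RPKM), Amh (0.108 RPKM) and Dhh (0.1 RPKM). Here Lif and Clu overlapped, as did Clu and Inhba, although Clu was above Inhba within every C18-4 library. Each neighbor from Inha to Trf overlapped the next, as Amh did Dhh. Among all 17995 genes, Kitl stood at percentile 82.7 of the mean levels in TM4 cells and 43.8 in C18-4 cells. Clu stood at percentile 28.0 in TM4 cells and 57.0 in C18-4 cells.

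The genes most like each member were those with the smallest root mean square difference of centered log2(RPKM + 0.1) profiles over the 12 libraries, 3 for each of the 8 members that averaged 1 RPKM or more in either line. For Kitl they were P2rx5 (0.257), Zfp804a (0.262) and Twist2 (0.296). Twist2, with means of 97.6 RPKM in TM4 cells and 7.46 RPKM in C18-4 cells, had 130 RPKM in each of TM4 shNC replicates 1 and 2 and 72.9 to 97.7 RPKM in the other TM4 libraries. For Gdnf they were Ankrd55 (0.273), Tmod1 (0.280) and Ero1l (0.307). Ero1l, which encodes an oxidase of the endoplasmic reticulum, had 459 and 474 RPKM in TM4 shNC replicates 1 and 2 and 167 to 192 RPKM in the other TM4 libraries. Gdnf and Kitl had the same libraries on top. The genes were Pls3 (0.101), Cdk9 (0.103) and Irak2 (0.104) for Lif, 4930523C07Rik (0.143), Tshz3 (0.190) and Nav2 (0.197) for Inhba, and Tagap (0.302), Ppargc1a (0.302) and Il1a (0.307) for Inhbb. They were Klhl23 (0.184), Abcd4 (0.190) and Npr2 (0.1999) for Inha, Lynx1 (0.315), Chst3 (0.330) and Il6ra (0.339) for Dhh, and Scube3 (0.209), Ddx25 (0.220) and 4930452B06Rik (0.227) for Clu.

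Whether shM5 changed the members was tested within each line, 3 libraries against 3. In C18-4 cells 7 members had the mean needed (Dhh, Amh and Trf did not), and 0 were called, like 0.0% of all 11611 genes tested. At an adjusted p below 0.05 there were also 0 members, compared to 0.586% of all genes (68 genes). Their adjusted p-values in limma lay between 0.398 and 0.941. The largest differences were -0.66 for Inha (SE 0.33), -0.60 for Gdnf (SE 0.30) and 0.57 for Inhbb (SE 0.24) on the log2 scale, with 95% intervals from -1.43 to 0.12, from -1.31 to 0.11 and from 0.01 to 1.14. Of the 7 tested members 2, Lif and Inhbb, had all shM5 libraries above all shNC libraries, a separation that 18.9% of all genes tested showed in either direction. The number depended on replicate 3, since without it in both groups 4 of the 7 members (Clu, Inha, Inhba and Inhbb) had a limma adjusted p below 0.05, as did 26.2% of all genes tested. In that fit Clu was at 0.39 (adjusted p = 0.0121), Inhba at 0.36 (adjusted p = 0.0285), Inhbb at 0.76 (adjusted p = 0.0481) and Inha at -0.84 (adjusted p = 0.0250), and 0 of them reached the fold and p needed for a call. Only replicate 3 clearly shifted alike in both C18-4 groups, so whether the replicate numbers pair all libraries is not known. With the replicate number as a block 0 members were called and 9 of all genes. At an adjusted p below 0.05 this block raised the genes from 68 to 1386, or 11.9% of all genes, and the members stayed at 0. The 95% intervals then ran from -1.13 to -0.19 for Inha (limma adjusted p = 0.0735), from -1.15 to -0.06 for Gdnf (adjusted p = 0.135) and from 0.06 to 1.09 for Inhbb (adjusted p = 0.130). The summed epithelial, fibroblast and smooth muscle markers given above separated the same groups, and their part in these differences was not tested.

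In TM4 cells 7 members could be tested (Amh, Trf and Clu could not), and 0 were called, like 0.0% of all 11016 genes. At an adjusted p below 0.05 there were 0 members and 0.0% of all genes, although 2866 genes had an unadjusted p below 0.05. The largest differences were those of Gdnf at -1.32 (SE 0.30, 95% interval -2.04 to -0.61) and Kitl at -0.96 (SE 0.31, 95% interval -1.70 to -0.22), each with a limma adjusted p of 0.192. Dhh was at 0.32 with a wide interval (SE 0.38, 95% interval -0.59 to 1.23, adjusted p = 0.541), and Inhba was at 0.26 (SE 0.094, 95% interval 0.04 to 0.49, adjusted p = 0.192). All shM5 libraries were below all shNC libraries for Gdnf and Kitl and above them for Inhba, so that 3 of the 7 tested members separated, compared to 26.8% of all genes tested.

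The result in TM4 cells turned on shNC replicate 3. Without it, against shNC replicates 1 and 2 alone, 2 of the 7 members were called, as were 8.13% of 11026 genes, and 5 members had an adjusted p below 0.05, as did 67.4% of all genes. Kitl was then at -1.33 (SE 0.081, limma adjusted p = 6.93e-06) and Gdnf at -1.66 (SE 0.13, adjusted p = 2.57e-05). Inhba at 0.34 (adjusted p = 0.000403), Inhbb at -0.32 (adjusted p = 0.00397) and Lif at 0.28 (adjusted p = 0.0123) had an adjusted p below 0.05 without the fold needed for a call. In the library left out Kitl had 22.7 RPKM, compared to 22.0 RPKM in shM5 replicate 3, and Gdnf had 4.59 RPKM, compared to 3.42 RPKM. The shNC libraries thus differed more from each other in both genes than shNC replicate 3 did from the shM5 libraries.

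**Figure D4:**
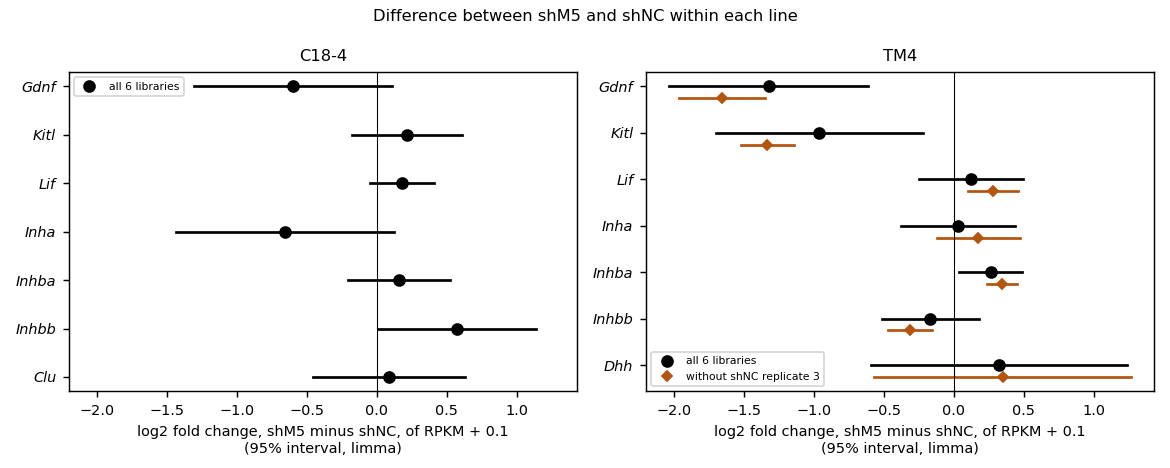
Log2 differences between shM5 and shNC with 95% intervals from limma, in C18-4 cells (left) and TM4 cells (right), for the 7 members tested in each line. Black circles use all 6 libraries and orange diamonds leave out TM4 shNC replicate 3, which lowers Gdnf from -1.32 to -1.66 and Kitl from -0.96 to -1.33.

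A difference between the lines in the response to shM5 was tested as an interaction over all 12 libraries. Of the 8 members 0 were called, like 0.0% of all 11773 genes, and 0 had an adjusted p below 0.05, compared to 0.102% of all genes (12 genes). The largest values were those of Kitl, at -1.18 (SE 0.36, limma adjusted p = 0.182), and Inhbb, at -0.74 (SE 0.25, adjusted p = 0.193). Without TM4 shNC replicate 3, Kitl was called at -1.55 (adjusted p = 0.000218), 1 of 8 members compared to 4.68% of all genes. Gdnf, at -1.06 (adjusted p = 0.0328), and Inhbb, at -0.89 (adjusted p = 0.0129), then had an adjusted p below 0.05 as well, 3 of 8 members compared to 38.0% of all genes. Without TM4 shNC replicates 1 and 2 instead, the values were smaller, at -0.43 for Kitl (adjusted p = 0.915), -0.06 for Gdnf (adjusted p = 0.999) and -0.44 for Inhbb (adjusted p = 0.982).

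The receptors and signal partners of the members were described between the lines as a list of 36 genes, of which 26 could be tested. The list was drawn up with earlier results of these data known, so its counts are descriptions. In TM4 cells 9 were called higher and 3 lower, compared to 9.54% and 16.8% of all genes tested. The median log2 difference was 0.36, compared to -0.14 over all genes. The receptors that define a response to the germ cell factors were scarce. Kit was listed at 0 in all 12 libraries, Ret reached at most 0.02 RPKM, and Gfra1 at most 0.34 RPKM. Amhr2, the receptor of anti-Müllerian hormone, reached at most 0.27 RPKM.

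The genes of proteins that bind activins or inhibins were among the most unequal partners. Fstl3, which encodes a follistatin-like activin antagonist, had 0.40 to 1.40 RPKM in C18-4 cells and 34.1 to 40.6 RPKM in TM4 cells, a log2 difference of 5.36 (SE 0.19, limma adjusted p = 1.90e-10). Fst, which encodes follistatin, had 0.18 to 0.35 RPKM in C18-4 cells and 7.88 to 13.7 RPKM in TM4 cells, a difference of 4.83 (SE 0.17, adjusted p = 1.66e-10). Tgfbr3, which encodes betaglycan, the inhibin co-receptor, had 3.41 to 6.12 RPKM in C18-4 cells and 37.8 to 44.0 RPKM in TM4 cells, a difference of 3.08 (SE 0.070, adjusted p = 2.86e-12). Higher levels of Inhba and Inhbb thus stood in the same line as higher levels of these partners. The activin receptor genes Acvr1b, Acvr2a and Acvr2b were not called, with differences of -0.03, -0.28 and -0.18. Their direction depended on scaling, since quantile normalization gave 0.27, 0.03 and 1.04 and called Acvr2b (adjusted p = 0.000129), and median-of-ratios scaling gave 0.10, -0.16 and -0.07.

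For desert hedgehog, the receptor gene Ptch1 had means of 2.40 RPKM in C18-4 and 7.99 RPKM in TM4 cells (log2 difference 1.70, SE 0.11, limma adjusted p = 4.62e-08). The transcription factor genes Gli1, at 0.410 and 2.52 RPKM (2.35, SE 0.14), and Gli2, at 0.818 and 4.11 RPKM (2.23, SE 0.096), were also called higher in TM4 cells. Of the co-receptor genes, Gas1 was higher in TM4 cells, with 8.42 and 39.2 RPKM (2.04, SE 0.25), whereas Cdon was lower, with 21.1 and 1.99 RPKM (-3.32, SE 0.12), and Boc was not called (-0.04, or 0.71 with quantile normalization and 0.07 with median-of-ratios scaling). Smo, the signal transducer, was not called, at 55.2 and 59.9 RPKM (0.09, SE 0.11). The hedgehog genes that were called thus did not all have the direction of Dhh.

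Among lipoprotein receptors that can take up clusterin, Lrp2, which encodes megalin, was lower in TM4 cells, at 10.2 to 18.7 RPKM in C18-4 and 0.14 to 0.43 RPKM in TM4 cells (log2 difference -5.34, SE 0.18, limma adjusted p = 9.60e-11). Lrp8, with means of 1.22 and 10.2 RPKM (2.96, SE 0.22), and Vldlr, with 9.40 and 30.9 RPKM (1.70, SE 0.31), were higher in TM4 cells. Vldlr missed the threshold in 11 alternatives, by most without TM4 shNC replicates 1 and 2 (adjusted p = 0.00771). Lifr, which encodes the receptor of leukemia inhibitory factor, was lower in TM4 cells, at 7.32 to 9.31 RPKM in C18-4 and 2.26 to 4.57 RPKM in TM4 cells (-1.34, SE 0.12, adjusted p = 1.37e-06), opposite to Lif itself. Its partner Il6st was not called (0.31). In the comparison of shM5 with shNC, 0 genes of this list were called in either line. Lrp2 in C18-4 cells, named after its values were seen, was the only one with an adjusted p below 0.05, with 10.2, 11.2 and 12.6 RPKM in shNC and 17.0, 18.7 and 18.3 RPKM in shM5 replicates 1, 2 and 3 (0.67, SE 0.10, adjusted p = 0.0475). When any C18-4 library of replicate 1 or 2 was left out, 0 of all genes had an adjusted p below 0.05 in limma, although 770 to 998 had an unadjusted p below 0.05.

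**Figure D5:**
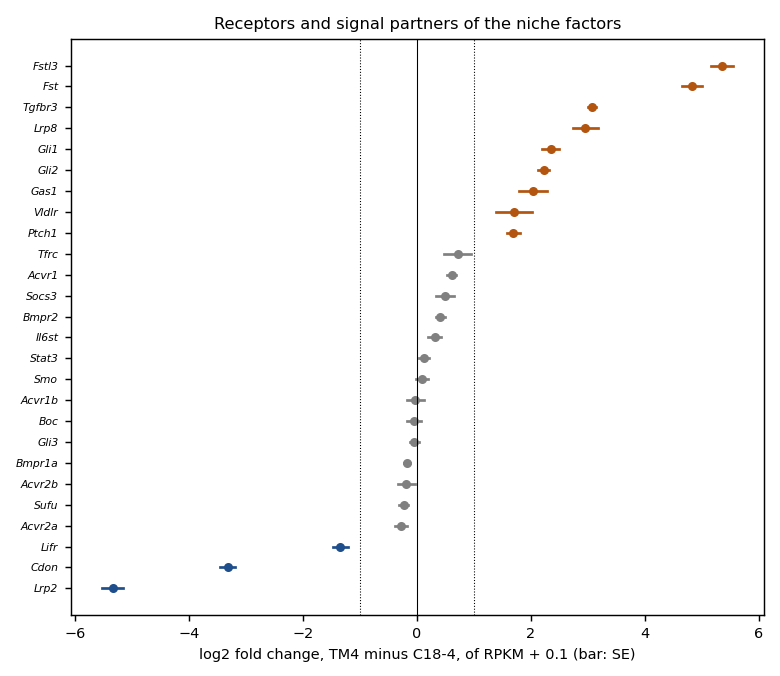
Log2 differences between TM4 and C18-4 cells with standard errors (bars) for the 26 tested receptors and signal partners, with dotted lines at -1 and 1. The 9 genes in orange, led by Fstl3 and Fst, were called higher in TM4 cells, and Lifr, Cdon and Lrp2 in blue were called lower.

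Other secreted products of Sertoli cells did not share one direction. Of 41 genes listed, 39 were in the data and 28 could be tested. This list too was drawn up with earlier results of these data known. In TM4 cells 6 were called higher and 11 lower, compared to 9.54% and 16.8% of all genes tested. The median log2 difference was 0.10, compared to -0.14 over all genes. Among the growth factors and cytokines, Cxcl12, the chemokine of stem cell homing, had at most 0.03 RPKM in C18-4 and 12.5 to 16.8 RPKM in TM4 cells (7.06, SE 0.095, limma adjusted p = 5.90e-14). Il6 had means of 0.425 and 59.3 RPKM (6.76, SE 0.26), and Il1a had 0.0133 and 1.72 RPKM (3.94, SE 0.20), both higher in TM4 cells. Plau, which encodes the urokinase plasminogen activator, had at most 0.06 RPKM in C18-4 and 14.0 to 59.8 RPKM in TM4 cells (7.90, SE 0.28).

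The genes called lower in TM4 cells included growth factors and a growth factor binding protein (Igfbp2) too. Igfbp2, with 108 to 156 RPKM in C18-4 cells, Bmp4, with 17.9 to 25.4 RPKM, and Tgfa, with 1.67 to 3.66 RPKM, were listed at 0 in all 6 TM4 libraries. Pdgfb had means of 11.3 and 0.0267 RPKM (log2 difference -6.51, SE 0.15), and Wnt6 had 3.66 and 0.0700 RPKM (-4.47, SE 0.21). Gdf15, a stress-induced cytokine gene, had 41.2 and 4.74 RPKM (-4.11, SE 0.58), and Jag1, a Notch ligand gene, had 9.51 and 1.47 RPKM (-2.61, SE 0.11). Sparc, a matricellular protein gene, had 1232 and 116 RPKM (-3.52, SE 0.14), each with a limma adjusted p of at most 5.27e-05. Of this list 0 genes were called between shM5 and shNC in either line.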

How the data were processed

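mRNA was enriched with oligo(dT) beads and sequenced on an Illumina HiSeq by the authors, who mapped the reads with SOAPaligner and deposited RPKM values with 2 decimals for 17995 genes. The genome build is not given in the sources used here. Columns were matched to libraries by name. Reads cannot be recovered, so depth is unknown beyond the steps of low values, and no counting interval is given. log2(RPKM + 0.1) was fitted with limma 3.58.1 (R 4.3.3; eBayes with trend, Benjamini-Hochberg over all genes tested) for genes averaging 0.5 RPKM or more in the libraries fitted, all 12 for the lines and the interaction and 6 for shM5 against shNC. The fit was tested on simulated data with noise drawn independently for each gene and library. Such data hold no shift shared by the genes of a library, so that test does not cover libraries that stand apart. Members below that mean were compared by an exact permutation test. The threshold follows the methods of the study, which used DEGseq on reads. Tables were made in Python 3.11.15 with numpy 2.4.6 and pandas 2.3.3.

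The members and gene lists were chosen with earlier results of these data known. Text names all members, their 3 most alike genes, and up to 12 called genes of each list, those with the largest fold change first. Positions are from GENCODE M21 on GRCm38, and promoters from RefSeq. Same-numbered C18-4 libraries deviated together from their group means (across genes, r = 0.399 for replicate 1, 0.4003 for replicate 2 and 0.623 for replicate 3). Deviations within a group cancel, so replicate 3 standing apart in both groups raises each of these values. Replicates 1 and 2 were not clearly paired. C18-4 shNC replicate 1 lay at 0.3218 from shM5 replicate 1 and 0.3255 from shM5 replicate 2, and shNC replicate 2 at 0.3225 and 0.3129. The numbers were therefore used as a block only as an alternative. Same-numbered TM4 libraries hardly deviated together (0.0662, 0.06 and 0.112). Alternatives covered pseudocount, filter, trend, scaling, threshold, block and left-out libraries.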

Additional observations from a re-analysis of the deposited data

How the results depend on the processing

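Between TM4 and C18-4 cells, 6 to 8 members were called over the alternatives, compared to 7 as reported, and every tested member kept its direction in each of them. Dhh missed the fold of a call with a pseudocount of 1 RPKM (0.95), and Inha gained one with quantile normalization. The number called was 7 in the shNC libraries alone, in the shM5 libraries alone, and with the replicate block. For shM5 in TM4 cells 0 to 2 members were called when single libraries were left out, 2 without shNC replicate 3, and for the interaction 0 to 1, with 1 without that library. The replicate block changed no call of a member. In C18-4 cells it raised the calls among all genes from 0 to 9 (from 68 to 1386 at an adjusted p below 0.05), and leaving out replicate 3 of both groups raised them to 54. In TM4 cells the numbers did not pair the libraries, and the block left the count there at 0.

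Differences that were not called turned sign where they lay near 0, and the cause was not tested. For shM5 in TM4 cells, Inha was at -0.0063 with median-of-ratios scaling and -0.044 with quantile normalization, and ran from -0.055 to 0.18 over the fits without 1 library, as Dhh did from -0.010 to 0.63. For shM5 in C18-4 cells Clu ran from -0.081 to 0.37 over such fits. In the interaction Clu ran from -0.21 to 0.25, Inhba from -0.041 to 0.20 and Lif from -0.16 to 0.10 over such fits. Clu was at -0.055 there with a pseudocount of 1 RPKM and -0.23 without replicate 3 of both C18-4 groups. Inhba was at -0.10 without the latter and -0.063 without TM4 shNC replicates 1 and 2. Trf kept its direction in all 13 alternatives of its exact test, where its p is the smallest the test can give and so says nothing of stability, and Amh kept its side of the threshold. Values under about 0.1 RPKM rest on a few reads.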
